A study of Mus musculus with 20 samples.

Results

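Enteroendocrine cells are scattered hormone-secreting cells of the gut epithelium, and their transcripts were followed here through 10 genes in the tissue labelled ileum of mice fed with or without tryptophan. The genes were taken by name: Chga and Chgb, Gcg, Pyy, Cck, Nts, Sct, Tac1, Sst and Gip. All 10 were present among the 35204 genes of the count table, and all 10 were among the 16306 genes that passed the filter on low counts, which asked for at least 0.5 CPM (counts scaled to a fixed library total) in at least 1 mouse.

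The 20 mice were female C57BL/6 animals, 7 weeks old at the start, in 4 groups of 5. All ate a defined amino acid diet for 3 weeks, either the control diet (CD) or the same diet without tryptophan (TDD). In the SPF groups the mice drank no antibiotics, whereas the ABX groups (CD+ABX and TDD+ABX) drank a mixture of ampicillin, vancomycin, metronidazole, neomycin and gentamycin in sweetened water. A 0.5 cm piece of gut wall, cut 2 cm from the cecum, was sequenced as poly-A RNA from each mouse.

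Enteroendocrine cells sense nutrients and microbial products at their luminal surface and release peptides from dense granules into blood or onto nerve endings. Each peptide is cut from a larger precursor, and the chromogranins encoded by Chga and Chgb are packed into the same granules. Tryptophan is one of the amino acids these cells respond to, and it is also the precursor of serotonin, the product of the enterochromaffin subtype. Some of these peptides are made by other cells as well: Tac1 and Sst by enteric neurons, and Gcg and Sst by pancreatic islets. In whole tissue, fewer cells of a type and less RNA per cell cannot be told apart.

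The chromogranins differ from the other 8 genes in marking most enteroendocrine cells. Gcg encodes proglucagon, the source of the glucagon-like peptides, and Pyy encodes peptide YY, which restrains appetite and gut motility. Cck encodes cholecystokinin, which contracts the gallbladder and stimulates pancreatic enzyme secretion. Nts encodes neurotensin, a peptide released after fat ingestion, and Sct encodes secretin, which stimulates bicarbonate secretion. Tac1 encodes the precursor of substance P, Sst encodes somatostatin, which inhibits the release of other hormones, and Gip encodes the glucose-dependent insulinotropic polypeptide, best known from the upper small intestine.

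Stretches before the RefSeq start sites of Cck, Nts, Gip and Sst are shown, since these are the members whose transcripts were lower in ABX-treated mice on CD. They were taken from RefSeq on GRCm38.p6, where all 10 members had an entry, and each is written on the strand of its gene. Capitals mark a cAMP response element (TGACGTCA), an AP-1 site (TGANTCA) or a TATA box (TATAAA), searched on both strands. The stretches lie at chr9:121495695-121495944 on the minus strand (Cck), chr10:102490487-102490668 on the minus strand (Nts), chr11:96024295-96024544 on the plus strand (Gip) and chr16:23890874-23890903 on the minus strand (Sst). For Nts, 68 bases that GENCODE places inside the gene were left off, and for Sst only a 30-base site is given, since GENCODE starts the gene further upstream and 114 bases of the window lie inside it. The printed Sst site is thus before the RefSeq start but inside the gene as GENCODE annotates it.
Cck: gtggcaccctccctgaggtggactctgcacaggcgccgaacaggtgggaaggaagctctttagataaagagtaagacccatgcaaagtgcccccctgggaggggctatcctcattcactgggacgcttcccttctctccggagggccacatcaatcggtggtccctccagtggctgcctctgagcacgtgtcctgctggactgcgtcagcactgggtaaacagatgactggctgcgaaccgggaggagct
Nts: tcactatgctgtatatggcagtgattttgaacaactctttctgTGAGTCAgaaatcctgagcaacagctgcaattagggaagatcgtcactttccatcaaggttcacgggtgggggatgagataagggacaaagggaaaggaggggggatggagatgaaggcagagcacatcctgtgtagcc
Gip: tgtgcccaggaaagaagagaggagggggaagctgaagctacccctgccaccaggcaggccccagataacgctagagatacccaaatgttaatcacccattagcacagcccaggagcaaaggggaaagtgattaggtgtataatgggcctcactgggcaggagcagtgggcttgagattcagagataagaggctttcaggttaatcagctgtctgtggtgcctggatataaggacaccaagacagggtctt
Sst: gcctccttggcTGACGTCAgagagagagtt

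Over the 250 bases before the RefSeq start, the cAMP response element was found in 2 of the 10 members, Chgb and Sst, and in 1.55% of 32851 promoters. The AP-1 site was found in Nts alone among the members and in 6.75% of promoters, and the TATA box in Gcg and Sct and in 12.4% of promoters. An E-box (CANNTG), the motif bound by basic helix-loop-helix factors such as Neurod1, was present in all 10 members and in 66.2% of promoters. The AP-1 letters lie 207 bases before the RefSeq start of Nts, and the cAMP response element letters 48 bases before that of Sst. No match of the first 3 motifs was found in the windows of Cck and Gip. These matches describe the letters and not binding.

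The tissue label and single libraries bear on these genes. Total counts per mouse ranged from 36676963 to 58662617. The ileal genes Fabp6, an intracellular bile acid carrier, and Slc10a2, the apical bile acid transporter, stood at only 0.238 to 3.91 CPM and 1.38 to 8.80 CPM in the 10 SPF mice. In the 10 ABX-treated mice they stood at 2.65 to 144 CPM and 13.2 to 86.1 CPM. Gata4, a transcription factor of the upper small intestine, stood at 75.1 to 118 CPM in SPF mice and 88.7 to 114 CPM in ABX-treated mice. Defining ileal genes were therefore nearly absent without antibiotics, and a marker of more proximal gut was present in every mouse. In CD mouse 5, 5 digestive enzyme genes of the exocrine pancreas (Cpa1, Cela2a, Ctrb1, Prss2 and Pnlip) summed to 137 CPM, against 0.253 to 0.771 CPM in the other 19 mice. The islet genes Ins1 and Ins2 had 5 and 3 counts there and 0 in the other mice. Since pancreatic islets make Gcg and Sst, comparisons that use CD mice are given for these genes also without that mouse. The summed markers of B cell follicles (5 genes) ranged from 2.38 to 130 CPM over the 20 mice, with medians of 4.93 CPM on CD and 89.0 CPM on TDD.

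The genes are scattered over the genome, with coordinates here from GENCODE M21 on GRCm38. Gcg (ENSMUSG00000000394.15) lies at chr2:62474530-62483650 and Chgb (ENSMUSG00000027350.8) at chr2:132781278-132795079, while Gip (ENSMUSG00000014351.12) lies at chr11:96024545-96030831 and Pyy (ENSMUSG00000017311.15) at chr11:102106676-102107832. Cck (ENSMUSG00000032532.7) lies at chr9:121489824-121495694, Nts (ENSMUSG00000019890.4) at chr10:102481756-102490486 and Sst (ENSMUSG00000004366.4) at chr16:23889573-23890958. Chga (ENSMUSG00000021194.6) lies at chr12:102554969-102565028, Tac1 (ENSMUSG00000061762.12) at chr6:7554879-7565834 and Sct (ENSMUSG00000038580.13) at chr7:141278330-141279133. All 10 are protein-coding genes.

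Levels between genes were compared as TPM, transcript levels that allow for transcript length. Over the 20 mice, Gip was the most abundant hormone transcript, at 98.7 ± 21.3 TPM (SD). It was followed by Nts at 67.5 ± 18.2 TPM, Sct at 64.9 ± 7.97 TPM, Sst at 57.6 ± 5.45 TPM, Chgb at 55.6 ± 14.4 TPM, Chga at 51.8 ± 8.02 TPM and Gcg at 42.8 ± 12.1 TPM. None of these neighbours from Nts down to Gcg differed by more than the larger of their SDs. Pyy, at 25.4 ± 6.30 TPM, Cck, at 19.0 ± 4.58 TPM, and Tac1, at 10.2 ± 2.73 TPM, stood lower, and each of these steps was larger than the spread. The order of these middle genes changed between groups, as the plot of levels between genes shows.

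**Figure D1:**
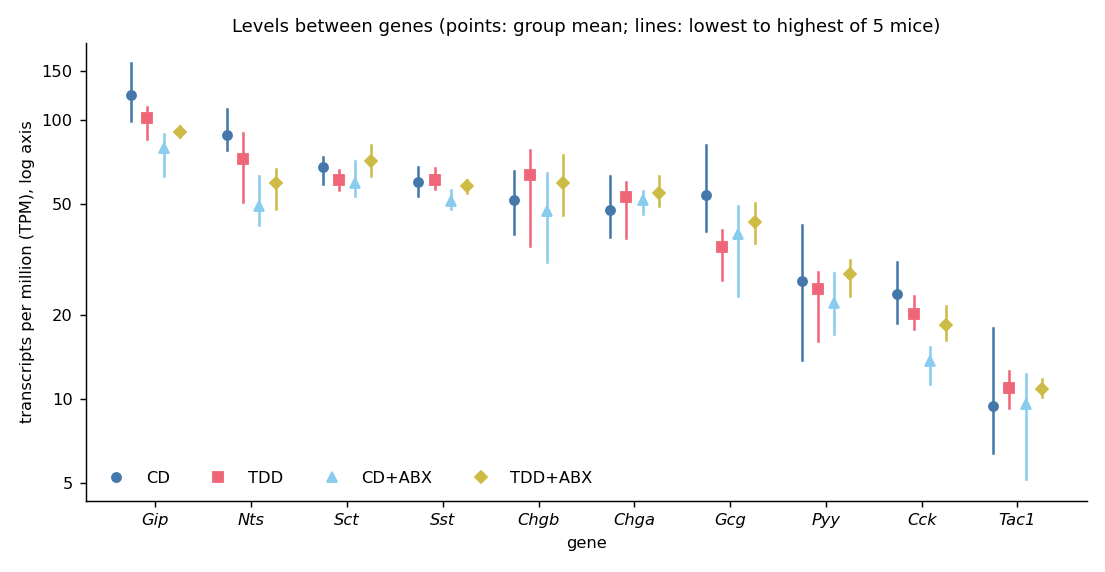
TPM (log axis) of the 10 hormone genes, ordered by their mean over 20 mice; points are group means and lines run from the lowest to the highest of 5 mice. Gip leads in all 4 groups and Tac1 is lowest in all 4, while the genes from Nts to Gcg overlap only in part. On CD every Nts mouse (78.1 TPM or more) lies above every Sct mouse (73.6 TPM or less). On TDD every Gcg mouse (40.4 TPM or less) lies below every Sst mouse (56.5 TPM or more).

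Most members were read from a single transcript. Chgb, Nts and Sst had 1 transcript each in the table, and the first transcript held a median of 98.0% of the counts of Chga, 98.8% of Cck, 93.9% of Gip (Gip-202) and 91.2% of Gcg. For the other 3 genes the counts were divided. Sct-202 held a median of 61.0% of the Sct counts, Sct-204 17.3%, Sct-201 13.6% and the retained-intron transcript Sct-203 8.03%. Pyy-201 held 60.8% of the Pyy counts, the retained-intron transcript Pyy-203 18.9%, Pyy-204 12.1% and Pyy-202 8.14%. Tac1-205 held 65.9% and Tac1-203 33.4% of the Tac1 counts. Minor transcripts were Gcg-202, at 6.52%, and Gip-201, at 6.12%. The estimated counts divide shared reads between transcripts, so these shares carry that uncertainty.

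The first question was whether tryptophan deficiency changed the hormone transcripts when the microbiota was intact. In SPF mice, Gcg was the only one of the 10 members whose p-value, adjusted by the Benjamini-Hochberg method over all genes (q), was under 0.05, and it fell on TDD. Gcg stood at 27.1, 53.2, 35.3, 28.8 and 38.7 CPM in the 5 CD mice and at 20.4, 27.5, 23.9, 27.9 and 24.5 CPM in the 5 TDD mice. The highest TDD mouse lay above the lowest CD mouse, so the groups overlapped, and CD mouse 2 lay well above the other CD mice. The log2 fold change was -0.56 (SE 0.18, 95% confidence interval -0.94 to -0.19, q = 0.041, edgeR's quasi-likelihood test). The call did not hold in CD mice without mouse 5, the animal with pancreatic transcripts (log2 fold change -0.55, q = 0.0749), nor without CD mouse 2 (-0.40, q = 0.0848). It was also lost without CD mouse 3 and without any 1 of the 5 TDD mice, and it held in 12 of the 20 refits that left out 1 mouse. Among the mice compared, it held only without CD mouse 1 or CD mouse 4. The other refits that kept it left out an ABX-treated mouse, which is in neither group. In 6 of 9 other settings q lay between 0.0529 and 0.0672.

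None of the 10 members met the stricter rule of q under 0.05 and a change of at least 2-fold, which 298 of all genes tested, or 1.83%, met. At any fold, 1 of 10 passed against 14.4% of all genes, and in no member did the CD and TDD mice separate without overlap, against 9.58% of all genes. Members were divided in direction, with 5 positive and 5 negative log2 fold changes and a median of -0.01, beside 0.01 over all genes tested. The chromogranin genes Chga and Chgb had log2 fold changes of 0.21 (95% confidence interval -0.08 to 0.49, q = 0.337, edgeR) and 0.36 (-0.09 to 0.82, q = 0.293, edgeR). Pyy, made in the same cells as Gcg, had 0.04 (-0.48 to 0.55, q = 0.946, edgeR). Sst had 0.10 (q = 0.302, edgeR), and 0.06 without CD mouse 5 (q = 0.609, edgeR). The intervals for Cck, Nts, Sct, Sst and Gip lay within 0.53 of 0 on the log2 scale in either direction.

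Tac1 depended on 1 mouse. It stood at 3.97, 9.91, 5.33, 4.45 and 4.63 CPM in the CD mice, where mouse 2 lay far above the rest, and at 6.88, 7.36, 6.79, 7.57 and 8.26 CPM in the TDD mice. The log2 fold change was 0.38 (SE 0.21, q = 0.237, edgeR). Without CD mouse 2 it was 0.67 (q = 0.00408, edgeR). The summed enteric neuron markers (12 genes) ranged from 34.2 to 107 CPM on CD and from 41.1 to 98.5 CPM on TDD. The highest CD value was that of mouse 2, which also had the highest CD level of each of the 12 genes. The same mouse had the lowest CD level of the enterocyte gene Krt20, at 767 CPM against a CD median of 1884 CPM. Over all 20 mice with group means removed, Tac1 and the summed neuron markers had Pearson's r = 0.45 (q = 0.222, permutation test). It was 0.15 without the 2 mice farthest from the median of these markers. How much of the Tac1 level came from neurons was not tested.

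The second question was whether the diet acted when the microbiota was depleted. In ABX-treated mice all 10 members had a positive log2 fold change on TDD, with a median of 0.19 beside -0.00299 over all genes tested, but none passed q under 0.05. The sign of Chga and of Gcg changed when single mice were left out. No member was called at 2-fold against 0.307% of all genes, and 0 of 10 at any fold against 1.64%. At an unadjusted p under 0.05, 3 of 10 passed (Cck, Sst and Sct), against 14.7% of all genes, and DESeq2 and limma-voom gave 0 at any fold. Cck stood at 6.11, 4.84, 6.25, 6.05 and 5.04 CPM in CD+ABX mice and at 8.99, 6.91, 7.15, 7.92 and 6.13 CPM in TDD+ABX mice. These values overlapped only in that the lowest TDD+ABX mouse lay below the highest CD+ABX mouse. The log2 fold change of Cck was 0.39 (SE 0.13, 95% confidence interval 0.13 to 0.66, q = 0.134, edgeR). Sst stood at 23.0, 21.4, 24.1, 21.0 and 23.2 CPM in CD+ABX mice and at 24.5, 25.5, 24.3, 25.2 and 25.0 CPM in TDD+ABX mice. It was the 1 member of 10 whose groups did not overlap, a separation found in 4.78% of all genes, and its log2 fold change was 0.14 (SE 0.06, q = 0.270, edgeR). For Sct the log2 fold change was 0.23 (SE 0.11, q = 0.311, edgeR).

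Antibiotics on the control diet gave 4 members past q under 0.05, more than any other of the 5 comparisons. Cck, Nts, Gip and Sst fell with ABX on CD, whereas the other 6 members did not pass q under 0.05. In all 4 genes, every CD+ABX mouse lay below every CD mouse.

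Cck stood at 9.12, 9.40, 12.6, 8.08 and 9.62 CPM in CD mice and at 6.11, 4.84, 6.25, 6.05 and 5.04 CPM in CD+ABX mice. Its mean was 9.76 ± 1.70 CPM against 5.66 ± 0.662 CPM (SD, n = 5 each), and the log2 fold change was -0.79 (SE 0.13, q = 0.000852, edgeR). Cholecystokinin transcripts were thus at 0.579 of their level on CD without antibiotics. Nts stood at 65.7, 68.7, 92.7, 73.5 and 77.6 CPM in CD mice and at 36.3, 44.2, 35.2, 39.8 and 57.6 CPM in CD+ABX mice. The neurotensin gene averaged 75.7 ± 10.6 CPM against 42.6 ± 9.07 CPM (SD, n = 5 each), with a log2 fold change of -0.83 (SE 0.15, q = 0.00173, edgeR). Only CD+ABX mouse 5 came near the CD range for Nts.

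Gip stood at 49.1, 41.6, 60.1, 39.6 and 41.3 CPM in CD mice and at 33.3, 33.0, 30.8, 23.9 and 30.7 CPM in CD+ABX mice. It averaged 46.3 ± 8.48 CPM against 30.3 ± 3.82 CPM (SD, n = 5 each), with a log2 fold change of -0.61 (SE 0.11, q = 0.001875, edgeR). Sst, the hormone that restrains the others, moved least of the 4. It stood at 25.7, 28.0, 27.8, 25.2 and 24.3 CPM in CD mice and at 23.0, 21.4, 24.1, 21.0 and 23.2 CPM in CD+ABX mice, so that the highest treated and the lowest untreated mouse were close. Its log2 fold change was -0.22 (SE 0.06, q = 0.0244, edgeR). Without CD mouse 5 the value for Sst was -0.24 (q = 0.0261, edgeR), and the other 3 genes also passed without that mouse. The call for Sst was lost without CD mouse 2 or 3 or without CD+ABX mouse 2 or 4 (highest q = 0.0762, edgeR), whereas those of Cck, Nts and Gip held in all 20 refits.

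Against the background, 4 of 10 members passed q under 0.05 where 12.6% of all genes did, and 4 of 10 did not overlap where 9.74% of all genes did not. No member reached 2-fold, against 2.25% of all genes. The members had a median log2 fold change of -0.20 beside -0.00479 over all genes tested, with 8 negative and 2 positive values. Their summed level ran from 326 to 440 CPM (median 408) in CD mice and from 298 to 361 CPM (median 319) in CD+ABX mice. Gcg had a log2 fold change of -0.46 (SE 0.18, q = 0.1, edgeR), and without CD mouse 5 of -0.43 (q = 0.16, edgeR). Neither chromogranin gene passed: Chga had 0.13 (95% confidence interval -0.15 to 0.41) and Chgb -0.13 (-0.58 to 0.33). The Chgb interval includes the log2 fold change of Sst, and whether the chromogranins differed from the 4 hormones was not tested.

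**Figure D2:**
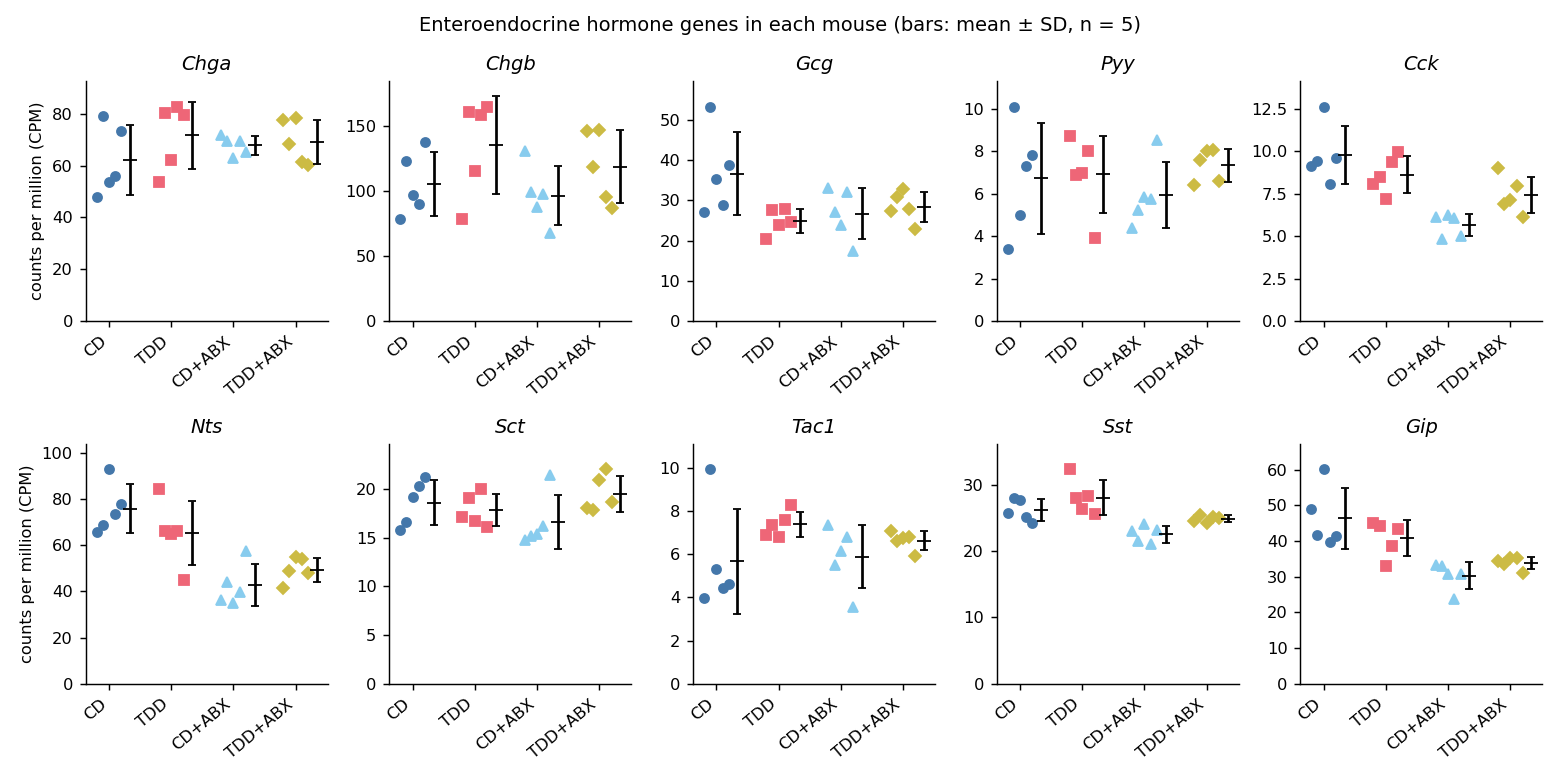
CPM of each hormone gene in every mouse, by group (5 mice each); points are mice, and black bars give the mean and SD. Cck, Nts, Gip and Sst show every CD+ABX mouse below every CD mouse, and Tac1 and Gcg show CD mouse 2 above the other CD mice.

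Markers of gut position moved with the same treatment. Fabp6 rose by a log2 fold change of 5.14 (q = 0.00585, edgeR) and Slc10a2 by 4.07 (q = 9.83e-05, edgeR) with ABX on CD, while none of the 3 tested markers of more proximal gut (of 4) passed. Gata4 had a log2 fold change of 0.03 (q = 0.902, edgeR), Lct, the lactase gene, -0.22 (q = 0.465, edgeR) and Fabp1, a fatty acid carrier, -0.67 (q = 0.135, edgeR). On TDD the ileal genes Fabp6 and Slc10a2 rose with ABX by 3.92 (q = 0.0198, edgeR) and 2.65 (q = 0.0014, edgeR). Within groups, the correlation with Fabp6 over the 20 mice was -0.53 for Gip, -0.251 for Cck, 0.275 for Nts and -0.069 for Sst, given as a description. With Slc10a2 the values were -0.388, -0.461, 0.339 and -0.07 in the same order, and with Gata4 they were 0.435, 0.32, -0.218 and -0.1. The part of gut position in the fall of these 4 genes was not tested. The neuron gene Vip also fell (log2 fold change -0.83, q = 0.0307, edgeR), with CD mouse 2 at 25.8 CPM against a CD median of 11.6 CPM. The summed neuron markers had a median of 56.1 CPM in CD and 63.5 CPM in CD+ABX mice. Within groups, Sst and this sum had Pearson's r = 0.46 (q = 0.157, permutation test, n = 20). Without the 2 mice farthest from the median of the sum, r was 0.30. How much of the Sst level came from neurons was not tested.

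On the tryptophan-free diet the same comparison gave no member past q under 0.05, against 15.4% of all genes, and none at 2-fold, against 1.63%. At an unadjusted p under 0.05, 3 of 10 passed (Sst, Nts and Gip), all lower with ABX, against 30.5% of all genes, and DESeq2 and limma-voom gave 0 at any fold. Nts stood at 84.2, 66.3, 64.8, 66.0 and 44.8 CPM in TDD mice and at 41.6, 48.9, 54.7, 53.9 and 47.8 CPM in TDD+ABX mice. TDD mouse 5 fell inside the treated range, and the other 4 TDD mice lay above it. The log2 fold change of Nts was -0.40 (SE 0.15, q = 0.0735, edgeR), and without TDD mouse 5 it was -0.51 (q = 0.0207, edgeR). Sst stood at 32.3, 28.0, 26.3, 28.2 and 25.5 CPM in TDD mice, and every TDD+ABX mouse lay below them. It was the 1 member of 10 whose groups did not overlap, against 11% of all genes, with a log2 fold change of -0.17 (SE 0.06, q = 0.0586, edgeR; without TDD mouse 5 -0.20, q = 0.0361). Gip had -0.27 (SE 0.11, q = 0.11, edgeR) and Cck -0.22 (SE 0.13, q = 0.26, edgeR).

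**Figure D3:**
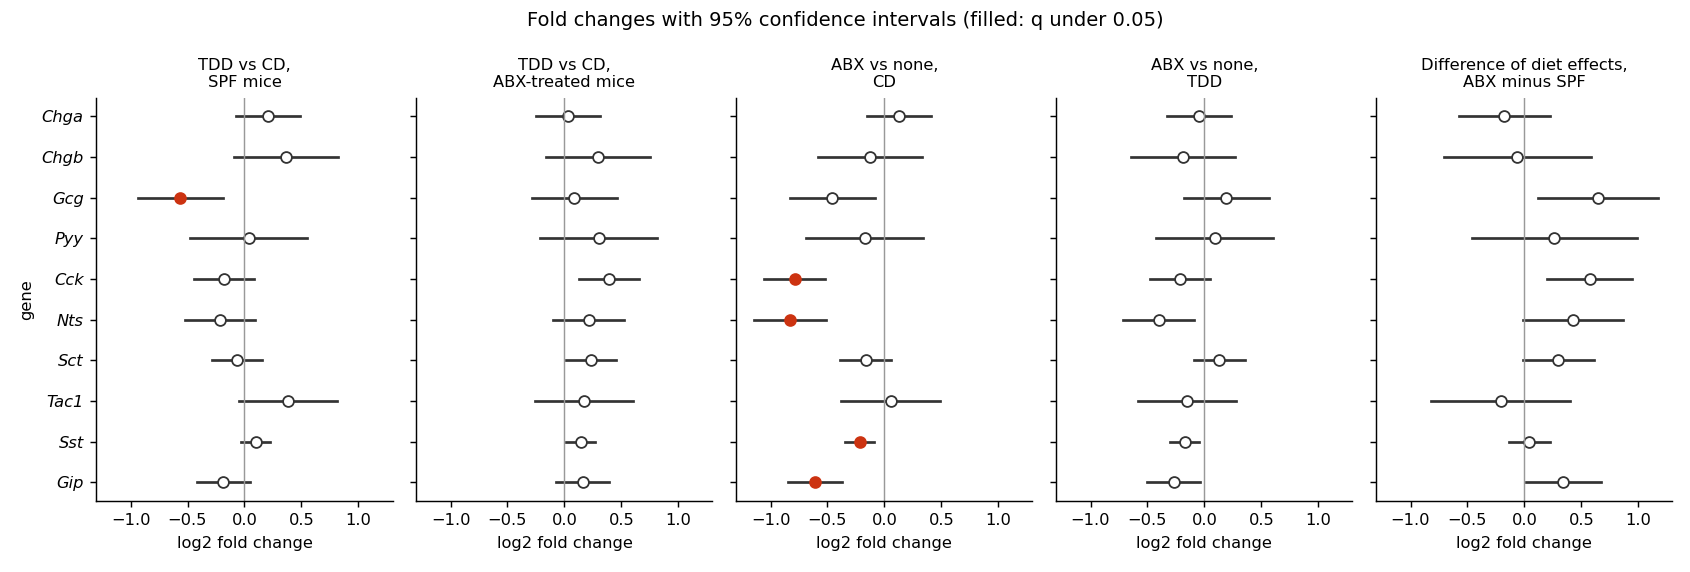
Log2 fold changes of the 10 genes with 95% confidence intervals in the 4 comparisons of groups and in the difference of the diet effects; filled points passed q under 0.05. Gcg is filled for the diet in SPF mice, and Cck, Nts, Sst and Gip are filled for ABX on CD.

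Whether the diet effect differed between ABX-treated and SPF mice was tested directly. No member passed q under 0.05, against 0.0368% of all genes, and none at 2-fold, against 0.0245%. At an unadjusted p under 0.05, 3 of 10 passed, namely Cck, Gcg and Gip, against 8.87% of all genes, each with a more positive diet effect under ABX, and DESeq2 and limma-voom gave 0 at any fold. The difference on the log2 scale was 0.57 for Cck (SE 0.18, 95% confidence interval 0.20 to 0.95, q = 0.294, edgeR). It was 0.65 for Gcg (SE 0.25, 0.12 to 1.17, q = 0.418, edgeR), or 0.64 without CD mouse 5 (q = 0.546, edgeR). For Gip it was 0.34 (SE 0.16, 0.01 to 0.67, q = 0.54, edgeR). The difference in diet effect was thus not detectable for any hormone gene after adjustment. The 4 comparisons of groups share mice with one another, and their values are given side by side for that reason.

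Hormone transcripts varied together from mouse to mouse in sets. With group means removed, 7 of the 45 member pairs passed q under 0.05 (two-sided permutation test exchanging mice within groups, 100000 permutations), all with a positive correlation. The chromogranins were the closest pair, with Pearson's r = 0.88 (q = 0.00045, n = 20) and Spearman's rho = 0.85 (q = 0.00045, permutation test), and r = 0.88 without the 2 mice farthest from the median of Chga. Gcg followed both, at r = 0.77 with Chgb (q = 0.0018) and 0.72 with Chga (q = 0.0018), and it was also close to Tac1 at r = 0.86 (q = 0.00337, permutation tests). By Spearman's test these 3 pairs had rho = 0.76 (q = 0.00585), 0.75 (q = 0.00225) and 0.72 (q = 0.0206). Without the 2 mice farthest from the median of the first gene, these were 0.72, 0.62 and 0.73. Tac1 also correlated with Chgb (r = 0.55, q = 0.0424) and Chga (r = 0.54, q = 0.0429, permutation tests). The Spearman tests for these missed the threshold (rho = 0.56, q = 0.0637, and rho = 0.52, q = 0.0615). Outside this set, Nts and Sct correlated at r = 0.64 (q = 0.0424), or 0.49 without the 2 mice, and at rho = 0.67 (q = 0.0214, permutation tests). Cck and Tac1 passed by Spearman's test (rho = 0.66, q = 0.0214) but not by Pearson's (r = 0.38, q = 0.388, permutation tests). Pyy, Sst and Gip were in no pair that passed by either, and the median r over all 45 pairs was 0.11.

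**Figure D4:**
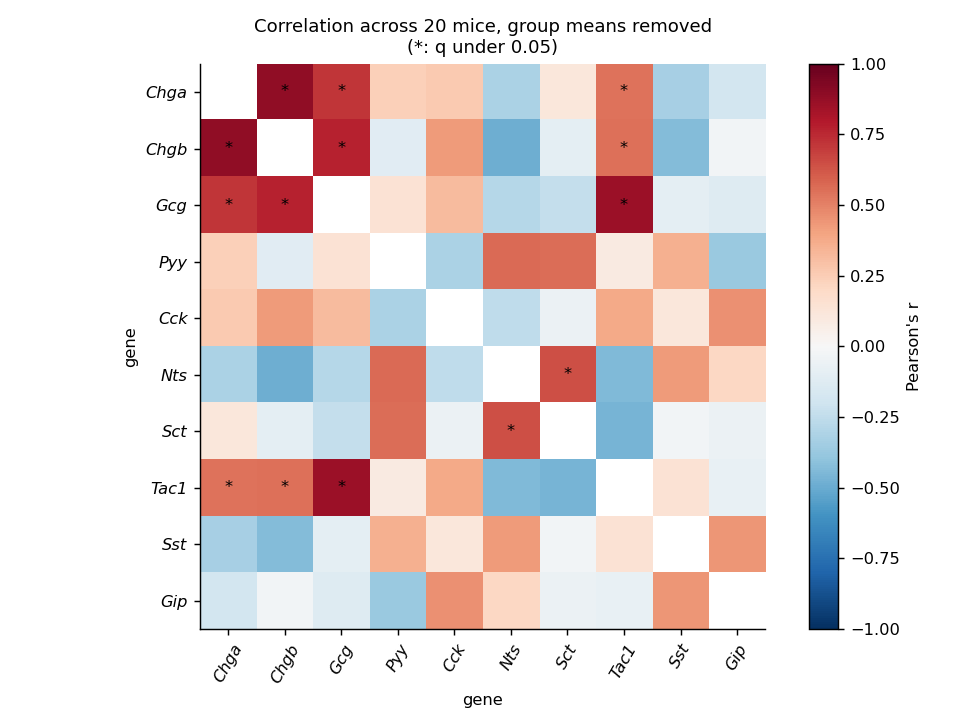
Pearson's r between the 10 hormone genes over 20 mice, as log2(CPM + 0.5) with group means removed; stars mark the 7 pairs with q under 0.05. The stars join Chga, Chgb, Gcg and Tac1, and separately Nts and Sct.

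Chga, Chgb and Gcg also moved with markers of crypt cells. The summed level of Lgr5, Olfm4, Ascl2 and Mki67, genes of stem and dividing cells of the crypt, ranged from 341 to 973 CPM over the 20 mice. Olfm4 and Mki67 made up most of it, with group means of 419 to 585 and 145 to 174 CPM. Lgr5 and Ascl2 had group means of only 14.1 to 16.4 and 4.08 to 5.43 CPM. Of 40 relations between the members and 4 marker lists, 3 passed q under 0.05, all with these crypt markers (two-sided permutation test within groups, n = 20). Chgb had r = 0.93 (q = 0.0004), Gcg 0.75 (q = 0.00747) and Chga 0.72 (q = 0.0016). In the same order, Spearman's rho was 0.95 (q = 0.0004), 0.68 (q = 0.042) and 0.80 (q = 0.001, permutation tests). Without the 2 mice farthest from the median of the crypt markers, r was 0.92, 0.62 and 0.77. The relation of Tac1 with the summed ileal enterocyte markers was r = -0.87 (q = 0.0788) and rho = -0.71 (q = 0.0659, permutation tests). That sum was 6746 CPM or more in every mouse and came mostly from Epcam, Vil1, Krt20 and Fabp2. Fabp6 and Slc10a2 gave at most 144 and 86.1 CPM, so the relation does not describe these 2 ileal genes. With the crypt markers Tac1 had r = 0.55 (q = 0.0968) and rho = 0.50 (q = 0.216, permutation tests). Nts had r = -0.61 with the crypt markers (q = 0.0968), or -0.28 without the 2 mice, and rho = -0.36 (q = 0.343, permutation tests). The part of the amount of crypt in each piece in these correlations between hormone genes was not tested. The crypt marker sum had medians of 724 CPM on CD, 737 on TDD, 607 on CD+ABX and 707 on TDD+ABX.

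**Figure D5:**
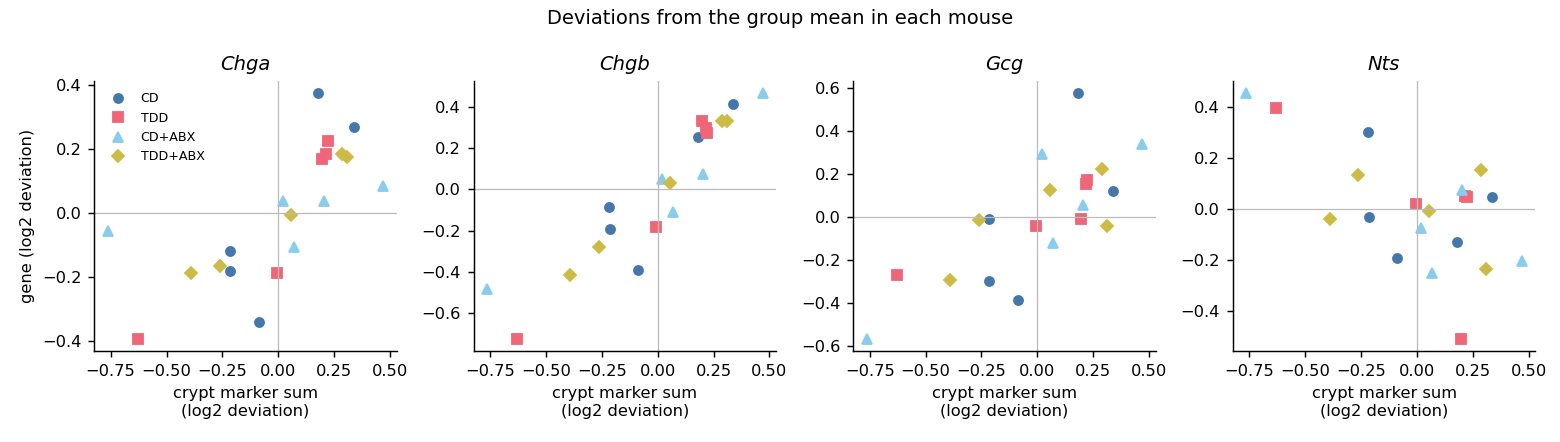
Deviation of Chga, Chgb, Gcg and Nts in each mouse from its group mean (y axis, log2) against that of the summed crypt markers (x axis, log2). Chgb follows the crypt markers most closely (r = 0.93), and Nts has r = -0.61, or -0.28 without the 2 mice farthest from the median of the crypt markers.

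Among the 16306 genes tested, those nearest to each member over the 20 mice are named as a description. Chgb was close to Cct5 (r = 0.93), a chaperonin subunit. Chga was closest to Chgb (r = 0.88) and Cct5 (r = 0.88), Gcg to Gnpat (r = 0.89) and Ubr7 (r = 0.89), and Tac1 to Nup85 (r = 0.92) and Cdk4 (r = 0.92). Nts was closest to Slc5a8 (r = 0.86), a short-chain monocarboxylate transporter, and Oser1 (r = 0.86), and Sct to P2rx4 (r = 0.85) and Capzb (r = 0.83). Cck was closest to Agmat (r = 0.87) and Phlda2 (r = 0.83), and Gip to Cyp3a44 (r = 0.82) and the carotenoid-cleaving enzyme gene Bco1 (r = 0.82). Pyy was closest to Tstd1 (r = 0.86) and Rps20 (r = 0.85), and Sst to Adam15 (r = 0.82) and mt-Co3 (r = 0.80).

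Of 19 transcription factors that direct these cells, 3 rose on TDD in SPF mice and none fell, a share near that of all genes (14.4%). Neurod1 stood at 3.46 ± 0.375 CPM in CD mice and at 4.68 ± 0.568 CPM in TDD mice (n = 5 each, SD), a log2 fold change of 0.44 (q = 0.0154, edgeR). The values were 0.38 for Pax6 (q = 0.022, edgeR) and 0.26 for Foxa1 (q = 0.0342, edgeR). For Neurod1, a helix-loop-helix factor of enteroendocrine precursors, every TDD mouse lay above every CD mouse, as for Pax6 and Foxa1. Such a separation was thus found in 3 of 19 factors, against 9.58% of all genes. The list had a median log2 fold change of 0.22 there, beside 0.0135 over all genes, and of 0.32 for the diet in ABX-treated mice, beside -0.00299, where none passed. Foxa1 was also the only factor higher with ABX on CD (0.26, q = 0.04, edgeR), against 12.6% of all genes. None passed with ABX on TDD or for the difference of diet effects.

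Of 18 precursor processing and granule genes, 1 rose in SPF mice on TDD, against 14.4% of all genes with q under 0.05. It was Scg5 (0.63 on the log2 scale, q = 0.0452, edgeR), a chaperone of prohormone convertase 2. The list had a median log2 fold change of 0.17 beside 0.0135 over all genes, and the enteric neuron markers, whose cells also hold such granules, had 0.213. Pam, the enzyme that amidates peptide ends, was the 1 of 18 that rose with ABX on CD (0.39, q = 0.0466, edgeR), against 12.6% of all genes. None passed in the other 3 comparisons. Of 4 serotonin genes, Ddc, the decarboxylase that forms serotonin, fell in SPF mice on TDD, from 169 ± 28.4 CPM to 91.4 ± 12.5 CPM (n = 5 each, SD), or by a log2 fold change of -0.89 (q = 9.25e-05, edgeR). Ddc is also abundant in enterocytes. The serotonin transporter gene Slc6a4 rose (0.41, q = 0.00176, edgeR), and it was higher with ABX on CD (0.30, q = 0.0181, edgeR). Tph1, which encodes the first enzyme of gut serotonin synthesis, had 0.65 (q = 0.0904, edgeR). Of the 4 serotonin genes, 1 thus rose and 1 fell in SPF mice on TDD, and 1 rose with ABX on CD. Over all genes, 14.4% and 12.6% passed in these comparisons.

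Of 12 other gut hormones, 9 were tested. In SPF mice on TDD, 1 of these rose and 1 fell, against 14.4% of all genes that passed. Each other comparison of groups gave 1, against 12.6% of all genes with ABX on CD and 15.4% with ABX on TDD. For the diet in ABX-treated mice the share of all genes was 1.64%. Guca2b, or uroguanylin, rose in SPF mice on TDD (0.62 on the log2 scale, q = 0.00655, edgeR) and Npy, a neuronal peptide related to Pyy, fell (-1.33, q = 0.0254, edgeR), as it did with ABX on CD (-1.60, q = 0.0107, edgeR). Npy was scarce, at 0.915 ± 0.597 CPM on CD (SD, n = 5), and CD mouse 2 was the highest of these, at 1.93 CPM. Adm2 rose on TDD in ABX-treated mice (2.79, q = 0.0385, edgeR) and with ABX on TDD (2.66, q = 0.0123, edgeR), with levels of 0.1 to 1.39 CPM in TDD+ABX mice. Their median was 0.338 CPM, and Adm2 reached at most 0.163 CPM on CD, 0.153 on TDD and 0.189 on CD+ABX. The groups overlapped. Adm2 thus passed the 0.5 CPM filter only through the TDD+ABX mice, the group then found high. It is the 1 gene counted above in both of these comparisons, and its calls carry no weight beyond the levels given. Gast, Insl5 and Ppy did not pass the filter on low counts.

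Among nutrient and microbial product sensors, 13 of 16 were tested. Of these 13, 2 rose on TDD in SPF mice, against 14.4% of all genes, and 1 rose with ABX on CD, against 12.6%. The sugar and peptide transporters Slc5a1 (0.61, q = 0.0337) and Slc15a1 (0.65, q = 0.0384) rose on TDD in SPF mice, and Slc15a1 rose with ABX on CD (0.93, q = 0.00646, edgeR). Both are enterocyte genes as well. None of the short-chain fatty acid receptors Ffar2 and Ffar3 or the long-chain fatty acid receptors Ffar1 and Ffar4 passed in any of the 5 comparisons. Of 22 hormone receptors, 17 were tested. Of these 17, 2 rose on TDD in SPF mice, against 14.4% of all genes. With ABX, 1 fell on CD and 2 fell on TDD, against 12.6% and 15.4% of all genes. Sstr1, a somatostatin receptor (0.74, q = 0.0148), and Npy1r, a receptor for peptide YY and Npy (0.83, q = 0.0224, edgeR), rose on TDD in SPF mice. Npy1r was lower with ABX on TDD (-0.79, q = 0.0278, edgeR). Sort1, which binds neurotensin, was lower with ABX on both diets (-0.23, q = 0.0269 on CD, and -0.29, q = 0.00719 on TDD, edgeR).

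All 6 peptide-degrading enzymes were tested. On TDD in SPF mice 2 of them rose, against 14.4% of all genes that passed. With ABX, 3 rose on CD and 1 on TDD, against 12.6% and 15.4% of all genes. Dpp4, which inactivates the glucagon-like peptides and the Gip product, rose on TDD in SPF mice (0.53, q = 0.0227, edgeR) and with ABX on CD (0.61, q = 0.0118, edgeR). Enpep rose in the same comparisons (0.63, q = 0.0106, and 1.03, q = 0.000555, edgeR), and Anpep rose with ABX on both diets (1.09, q = 0.00114 on CD, and 0.80, q = 0.00854 on TDD, edgeR). These enzymes sit on the enterocyte brush border. Of 6 ileal enterocyte markers, Fabp2 (1.20, q = 0.000543 on CD, and 1.22, q = 0.000556 on TDD, edgeR), Fabp6 and Slc10a2 rose with ABX on both diets. Epcam, Vil1 and Krt20 did not pass in either comparison, and the part of enterocytes in the enzyme values was not tested.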

How the data were processed

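Poly-A RNA of tissue labelled ileum from 20 mice (4 groups of 5) was sequenced by the authors on an Illumina NovaSeq and assigned to the GRCm38 transcriptome with kallisto (0.44.0 in the submitters' processing notes). The authors deposited estimated counts per gene, not normalized, and estimated counts and TPM per transcript. Kallisto divides reads between similar transcripts, which can shift values between them. Here gene counts were rounded to whole numbers, scaled by TMM and tested with edgeR 4.0.16 (quasi-likelihood, robust, 4 groups in 1 fit) over the 16306 genes that reached 0.5 CPM in 1 mouse or more. Calls needed a Benjamini-Hochberg q under 0.05, and at least 2-fold where stated. The authors' methods gave these thresholds but named no test. TPM were summed per gene over transcripts matched to GENCODE M21 (98.38% of transcripts). Correlations used log2(CPM + 0.5). Replicates were separate mice.

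The members and gene lists were chosen with earlier results of these data known. All 10 members are named. Of the other lists, genes with q under 0.05 in at least 1 of 5 contrasts are named (at most 6 a list, smallest q first), as are the 2 nearest genes per member and transcripts with over 5% of a member's counts. One nearest gene is not reported here. The relations with marker lists, the position markers Fabp6, Slc10a2 and Gata4, and the receptors and enzymes named without passing were chosen after the data were seen. Alternatives included other scalings and filters, DESeq2 1.42.0, limma 3.58.1, a replicate block and leaving out each mouse. The procedures were tested on simulated data.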

Additional observations from a re-analysis of the deposited data

Results flagged for a closer look

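In each of the 40 sets of 5 mice (10 hormone genes in 4 groups), the highest and lowest mouse were compared with the others by Dixon's rule, which marks about 1 in 20 such sets by chance. In 3 sets a mouse lay apart. Tac1 was at 9.91 CPM in CD mouse 2, above the 3.97 to 5.33 CPM of the other CD mice. Sct was at 21.4 CPM in CD+ABX mouse 5, above 14.7 to 16.2 CPM in the other CD+ABX mice. Gip was at 23.9 CPM in CD+ABX mouse 4, below 30.7 to 33.3 CPM in the others, and this mouse also had the highest Fabp6 level, at 144 CPM.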

How the results depend on the processing

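The calls of Cck, Nts and Gip with ABX on CD passed q under 0.05 in every alternative run, and no member reached 2-fold in any. Without the fold limit, 1 member was called for the diet in SPF mice and 4 with ABX on CD. For the diet in SPF mice, 0 members passed q under 0.05 with upper-quartile scaling, limma-voom, no filter, only the 2 groups fitted, TPM or a replicate block, against 1 in the fit reported. Gcg had log2 fold changes of -0.53 to -0.57 there, with q between 0.0529 and 0.0672. Sst with ABX on CD missed the threshold without a filter (q = 0.0526) and with only the 2 groups fitted (q = 0.0588).

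When 1 mouse at a time was left out, 0 to 1 members passed for the diet in SPF mice, 3 to 4 with ABX on CD and 0 to 2 with ABX on TDD. The number of correlated pairs ran from 4 to 9. Signs changed in these refits only among log2 fold changes that missed the threshold. They ran from -0.130 to 0.223 for Pyy and the diet in SPF mice, from -0.0204 to 0.0746 for Chga and from -0.0349 to 0.174 for Gcg and the diet in ABX-treated mice. With ABX on CD they ran from -0.341 to 0.0258 for Pyy and from -0.0486 to 0.355 for Tac1, and on TDD from -0.138 to 0.0113 for Chga and from -0.0605 to 0.187 for Pyy. The difference of diet effects for Chgb ran from -0.207 to 0.0809. On TPM, signs changed for Pyy and the diet in SPF mice (-0.0321), Chga with ABX on TDD (0.0633) and the Chgb difference (0.0663). The cause of these changes was not tested.

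With the replicate number as a block, 4 members passed with ABX on CD and 0 in the other comparisons, and Gcg had q = 0.0538. Over 20 pairs of mice with the same number, 5 had deviations correlated above 0.1 and 6 correlated best with their own number. The labels do not say whether same-numbered mice shared a cage or batch, and these values cannot settle it. Tac1, Pyy and Cck had the lowest CPM of the members, at under 13 CPM in every mouse. They still had at least 144, 123 and 202 counts in every mouse, in the same order.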
